A study of Mus musculus with 8 samples.

Results

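Ccl3, Ccl4, Ccl5, Ccl6 and Ccl9 form the MIP and RANTES chemokine cluster examined here, which lies on mouse chromosome 11. The members were taken by gene symbol, are 5 of the 28918 genes in the expression table, and all 5 passed the filter on low values, a mean of at least 1 TPM (a measure of transcript abundance scaled by gene length and library) over the tumors. Polyadenylated RNA was sequenced from bulk subcutaneous tumors of B16-mhgp100, a mouse melanoma line that carries a gp100 antigen, grown in C57BL/6 mice. The Colq group held 3 tumors of the line with Colq over-expression, 1 library each. The Vector group held 3 tumors of the line with the vector alone, of which tumors 1 and 2 were sequenced as 2 portions each, giving 5 libraries. Every mouse in both groups received anti-PD1, a checkpoint-blocking antibody, starting on day 10 from inoculation, as 4 doses of 200 µg with 2 doses in each week. Harvest followed the final dose by 1 day. The comparison asks how treated tumors differ with Colq, and no untreated group was compared. The age and sex of the mice, and whether either line is 1 clone, were not stated in the labels.

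Chemokines are small secreted proteins that draw leukocytes along a gradient by binding G protein-coupled receptors, and the CC class is named for a pair of adjacent cysteines near the start of the mature protein. Ccl3 and Ccl4 encode macrophage inflammatory proteins 1 alpha and 1 beta, and Ccl5 encodes RANTES; all are made by activated T cells, NK cells and macrophages. Ccl6 and Ccl9 are rodent genes of myeloid cells whose products act on the receptor Ccr1. In tumors these chemokines are known for bringing in T cells, monocytes and macrophages, and Ccl9 for recruiting immature myeloid cells in mouse models.

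The coding sequence around the adjacent cysteine codons, in capitals, is shown because it is the feature that the family is named for and lets the members be compared base by base. The stretches are 60 bases long, are written 5′ to 3′ on the coding strand, and were read from the GENCODE M21 transcripts on GRCm38, a build that differs from the mm39 build behind the expression values.
Ccl3, chr11:83648610-83648669, minus strand: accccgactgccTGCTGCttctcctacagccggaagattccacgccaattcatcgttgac
Ccl4, chr11:83663470-83663529, plus strand: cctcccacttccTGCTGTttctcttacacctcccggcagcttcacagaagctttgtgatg
Ccl5, chr11:83529200-83529259, minus strand: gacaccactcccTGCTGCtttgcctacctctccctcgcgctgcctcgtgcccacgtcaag
Ccl6, chr11:83589344-83589403, minus strand: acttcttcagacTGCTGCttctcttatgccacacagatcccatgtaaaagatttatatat
Ccl9, chr11:83575884-83575943, minus strand: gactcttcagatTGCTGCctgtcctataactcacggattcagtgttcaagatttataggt
Over the whole coding sequence Ccl6 and Ccl9 were 71.9% identical and Ccl3 and Ccl4 were 70.7% identical, while the other pairs lay between 61% and 68.9%. Ccl6 and Ccl9 have 4 exons with coding lengths of 348 and 366 bases, and Ccl3, Ccl4 and Ccl5 have 3 exons with coding lengths of 276, 276 and 273 bases. None of these pairs is near-identical over its length.

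The sequence upstream of Ccl6 and Ccl9 is shown because these neighbours had the largest fold changes of the cluster. RefSeq windows on GRCm38.p6 were found for 3 of the 5 members, Ccl3, Ccl6 and Ccl9, and the 250 bases before the annotated start are printed for Ccl6 and Ccl9. Capitals mark the longest run of letters common to both windows.
Ccl6, chr11:83593088-83593337, minus strand: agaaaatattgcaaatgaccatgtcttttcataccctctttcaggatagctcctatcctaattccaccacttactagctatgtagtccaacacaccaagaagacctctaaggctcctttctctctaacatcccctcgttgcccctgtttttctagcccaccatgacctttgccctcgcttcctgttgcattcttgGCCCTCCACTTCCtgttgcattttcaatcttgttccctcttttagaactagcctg
Ccl9, chr11:83578637-83578886, minus strand: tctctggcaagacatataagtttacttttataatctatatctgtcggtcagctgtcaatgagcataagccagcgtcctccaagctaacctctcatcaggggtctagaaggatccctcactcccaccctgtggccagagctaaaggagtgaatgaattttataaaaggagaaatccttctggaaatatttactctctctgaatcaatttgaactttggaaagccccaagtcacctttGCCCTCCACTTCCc
The shared run is 13 bases long and begins 55 bases before the start of Ccl6 and 14 bases before that of Ccl9. It was singled out after the sequences were seen, and it occurs in 5 of 32851 such windows (0.0152%), a count that includes those of Ccl6 and Ccl9. The longest run that Ccl3 shares with either gene is 8 bases, found in 1.33% of windows for the Ccl6 run and 1.74% for the Ccl9 run. Shorter runs are commoner by length alone, so these shares cannot be set against that of the 13-base run. Motifs were searched on both strands, with matches allowed to overlap. The Ccl9 window matched the kappa B consensus at 35 bases before the start, TATAAA at 224, 94 and 92, the AP-1 motif TGANTCA at 53 and the C/EBP motif TTNNGNAA at 75 and 38. The Ccl3 window matched the C/EBP motif at 100 and the PU.1 motif GAGGAA at 33, and the Ccl6 window matched none of those letters, nor did any of the 3 match the interferon-stimulated response element. Over all windows the share with a match was 7.25% for kappa B, 12.4% for TATAAA, 6.75% for AP-1, 36.8% for C/EBP, 23.3% for PU.1 and 2.98% for the interferon element.

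Some features of the series bear on every value. Colq itself stood at 4.31 ± 0.63 TPM in the Colq tumors, against 0.122 ± 0.058 TPM in the Vector tumors (SD, n = 3 each), and genes of skeletal muscle, a tissue that also expresses Colq, were higher in the same tumors. The 3 Colq libraries lay closer together than portions of 1 tumor: over tested genes the SD of the log2 difference between libraries was 0.36 to 0.39 for pairs of Colq tumors, 0.51 for both pairs of portions of 1 Vector tumor and 0.44 to 0.56 for pairs of Vector tumors. Results for the chemokines, and counts over all genes, are therefore given also with the Colq libraries counted as 1 sample. For the other named genes the text below does not give that setting, although more of their calls were lost under it than under any other. Rac2, Rgs1, Lck and Il10, described below, were among the genes that lost their calls under it. Of 13726 genes tested, 1556 were called higher in Colq tumors (11.3%) and 8181 lower (59.6%), with a median log2 fold change of -0.50. After size factors, which bring that median to -0.01, 27.3% of tested genes were called higher and 26.8% lower. Depth cannot be read from TPM and is unknown here, and in bulk tumors fewer cells of a type and less RNA per cell cannot be told apart.

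All 5 chemokines were higher in Colq than in Vector tumors, against 11.3% of all genes tested, in 2 sets of unlike size. Ccl6 and Ccl9 were about an order of magnitude higher, while Ccl3, Ccl4 and Ccl5 were nearer to a doubling. The members were chosen with earlier results of these data known, so the share over all genes is not an independent comparison. After removal of the trend on gene length and GC content, 3 members were called higher, against 19.4% of genes. Fold changes are given on the log2(TPM + 1) scale, Colq minus Vector, and were called at a Benjamini-Hochberg adjusted p under 0.05 from limma, adjusted over all tested genes.

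Ccl6, the most abundant transcript of the cluster in Colq tumors, stood at 344, 342 and 348 TPM in Colq tumors 1, 2 and 3, against 32.9 and 32.7 TPM in the portions of Vector tumor 1, 66.5 and 17.4 TPM in those of Vector tumor 2 and 32.7 TPM in Vector tumor 3. The lowest Colq library was far above the highest Vector library, and the Vector libraries that differed most were portions of 1 tumor, with 3.82 times as much in portion 1 as in portion 2. The log2 fold change was 3.34 (SE 0.05; limma, adjusted p = 3.38e-07), the 26th largest of all tested genes. That SE rests on tumor means, and the mean of the unlike portions of Vector tumor 2 fell close to the other Vector tumors.

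Ccl9, the close relative of Ccl6 whose gene lies 9.25 kb away, held 101, 114 and 108 TPM in the Colq tumors, against 6.24 and 10.1 TPM in the portions of Vector tumor 1, 20.6 and 11.7 TPM in those of Vector tumor 2 and 12.02 TPM in Vector tumor 3. Libraries of the groups did not overlap. Its means were 108 ± 6.7 TPM in the Colq tumors, against 12.1 ± 4.0 TPM in the Vector tumors (SD, n = 3 each), a ratio of 8.89, and its log2 fold change was 3.12 (SE 0.20; limma, adjusted p = 2.29e-05), the 33rd largest. Counting the Colq libraries as 1 sample left both genes called, with limma adjusted p = 0.00856 for Ccl6 and 0.00869 for Ccl9.

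**Figure D1:**
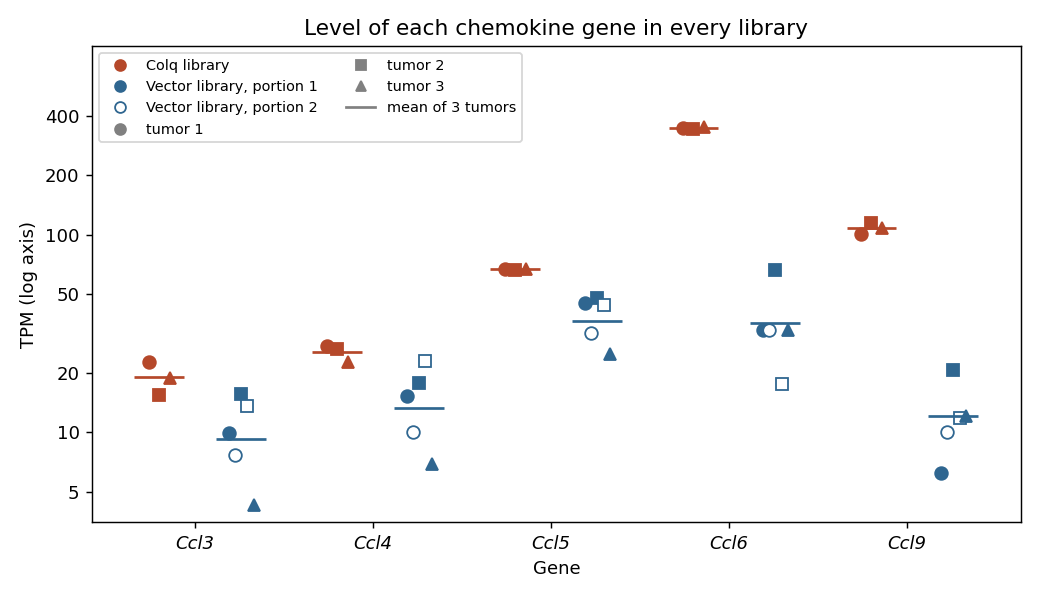
TPM of the 5 chemokine genes (log axis) in 3 Colq libraries, left, and 5 Vector libraries, right, with symbols for the tumor, open symbols for second portions and lines at the mean of 3 tumors. Ccl6 lies between 342 and 348 TPM in the Colq libraries and between 17.4 and 66.5 TPM in the Vector libraries, while for Ccl3 and Ccl4 the lowest Colq library lies just below the highest Vector library.

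Ccl5, the chemokine of activated T cells and NK cells known as RANTES, measured 67.0, 65.8 and 66.9 TPM in the Colq tumors. In the Vector group it measured 45.2 and 31.8 TPM in the portions of tumor 1, 47.7 and 44.1 TPM in those of tumor 2 and 24.7 TPM in tumor 3. The Colq tumors were nearly equal and every one of them exceeded every Vector library. The means were 66.6 ± 0.65 TPM in the Colq tumors, against 36.4 ± 10.7 TPM in the Vector tumors (SD, n = 3 each), and the log2 fold change was 0.91 (SE 0.20; limma, adjusted p = 0.00442). With the Colq libraries as 1 sample the call was lost (limma, adjusted p = 0.102).

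Ccl3, a ligand of Ccr1, measured 22.7, 15.4 and 18.7 TPM in the Colq tumors, against 9.88 and 7.62 TPM in the portions of Vector tumor 1, 15.6 and 13.5 TPM in those of Vector tumor 2 and 4.27 TPM in Vector tumor 3. Colq tumor 2 lay just below 1 portion of Vector tumor 2, though no Colq tumor lay below a Vector tumor's mean. The log2 fold change was 1.09 (SE 0.36; limma, adjusted p = 0.0279).

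Ccl4, macrophage inflammatory protein 1 beta, whose gene is read in the opposite direction from the other members, measured 27.1, 26.3 and 22.6 TPM in the Colq tumors, against 15.2 and 10.0 TPM in the portions of Vector tumor 1, 17.7 and 22.8 TPM in those of Vector tumor 2 and 6.89 TPM in Vector tumor 3. Here too tumor means were apart while single libraries touched, since Colq tumor 3 lay just below portion 2 of Vector tumor 2. The log2 fold change was 1.01 (SE 0.32; limma, adjusted p = 0.0227).

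The calls for Ccl3 and Ccl4 were lost under more settings than those of the other members. Both were lost after the trend on gene length and GC content was removed (log2 fold changes 0.67 and 0.58; limma, adjusted p = 0.151 for each), and with the Colq libraries as 1 sample (limma, adjusted p = 0.214 for Ccl3 and 0.207 for Ccl4). Both were also lost without Colq tumor 1 (limma, adjusted p = 0.0936 for Ccl3 and 0.0706 for Ccl4) and without Vector tumor 1 (0.0717 and 0.0642). Ccl3 lost its call without Colq tumor 3 (0.0741) and Ccl4 without Colq tumor 2 (0.0661). Without Vector tumor 3, where both were lowest, the log2 fold change was 0.69 for Ccl3 and 0.65 for Ccl4, both still called (limma, adjusted p = 0.0344 and 0.022).

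Among genes with exonic lengths in the range of the members, 660 to 3045 bases, 22.1% were called higher and 36.5% lower, with a median log2 fold change of -0.17. All of the 5 members lay above that median as they lay above the median of all genes. After removal of the length and GC trend, where 19.4% of genes were called higher and 27.7% lower, Ccl5 was called at a log2 fold change of 0.67 (limma, adjusted p = 0.0179), Ccl6 at 3.27 and Ccl9 at 3.25. After size factors the log2 fold changes were 1.60 for Ccl3, 1.53 for Ccl4, 1.45 for Ccl5, 3.88 for Ccl6 and 3.66 for Ccl9, all called by limma. For each member the exact permutation test (two-sided, 6 tumors) gave p = 0.1, the lowest possible with 3 against 3, with all 3 Colq tumors above all 3 Vector tumors. Across all tested genes 12.2% had every Colq tumor above every Vector tumor, and 9.92% had every Colq library above every Vector library, as Ccl5, Ccl6 and Ccl9 did.

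The authors' deposited table gave log2 fold changes of 1.59 for Ccl3 and 1.48 for Ccl4, with adjusted p = 6.71e-05 and 3.38e-05. For Ccl5 the authors' deposited table gave 1.43 (adjusted p = 2.69e-09), for Ccl6 3.80 (2.26e-255) and for Ccl9 3.69 (4.02e-75). Of genes with an adjusted p in that deposited table of the authors, 20.1% were higher and 20.4% lower at a threshold of 0.05, and Colq had a log2 fold change of 5.48, from which its direction was read.

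The differences in size between members were examined within tumors, as the difference of each pair in log2(TPM + 1), over 10 pairs. Ccl6 exceeded Ccl3, Ccl4 and Ccl5 in log2 fold change by 2.24, 2.33 and 2.43, and Ccl9 exceeded them by 2.03, 2.11 and 2.22. For those 6 pairs the tumors of the groups did not overlap and the exact permutation p was 0.1, or 0.167 after adjustment over the 10, which is the limit of the design and passes no threshold. Within the sets, Ccl6 and Ccl9 differed by 0.21 (exact permutation p = 0.5), Ccl3 and Ccl4 by 0.08 (p = 0.6), Ccl3 and Ccl5 by 0.19 (p = 0.5) and Ccl4 and Ccl5 by 0.10 (p = 0.6), each with an adjusted p of 0.6. Tumors overlapped for each of these 4 pairs.

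The mixture of transcripts in the cluster differed between the groups, a description that largely restates the fold changes as shares. Its summed level was 563 ± 1.7 TPM in the Colq tumors, against 107 ± 29.6 TPM in the Vector tumors (SD, n = 3 each). Ccl6 made up 61.2 ± 0.48% of that sum in Colq tumors, against 34.4 ± 5.4% in Vector tumors, and Ccl9 19.1 ± 1.2% in Colq tumors, against 11.5 ± 3.4% in Vector tumors. Ccl5 made up 11.8 ± 0.13% in Colq tumors, against 34.0 ± 3.8% in Vector tumors. Ccl4 made up 4.5 ± 0.44% in Colq tumors, against 11.9 ± 3.1% in Vector tumors, and Ccl3 3.36 ± 0.65% in Colq tumors, against 8.16 ± 2.6% in Vector tumors. The exact permutation p was 0.1 for each share, with no overlap between groups. The shares depend on one another and on the fold changes, so these p-values are not separate support. Within the pairs, the ratio of Ccl6 over Ccl9 was 3.21 ± 0.21 in Colq tumors, against 3.11 ± 0.79 in Vector tumors (exact permutation p = 0.9). Single Vector libraries ran from 1.48 in portion 2 of tumor 2 to 5.28 in portion 1 of tumor 1, a spread that averaging portions leaves out. The ratio of Ccl3 over Ccl4 was 0.75 ± 0.14 in Colq tumors, against 0.678 ± 0.052 in Vector tumors (exact permutation p = 0.4).

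**Figure D2:**
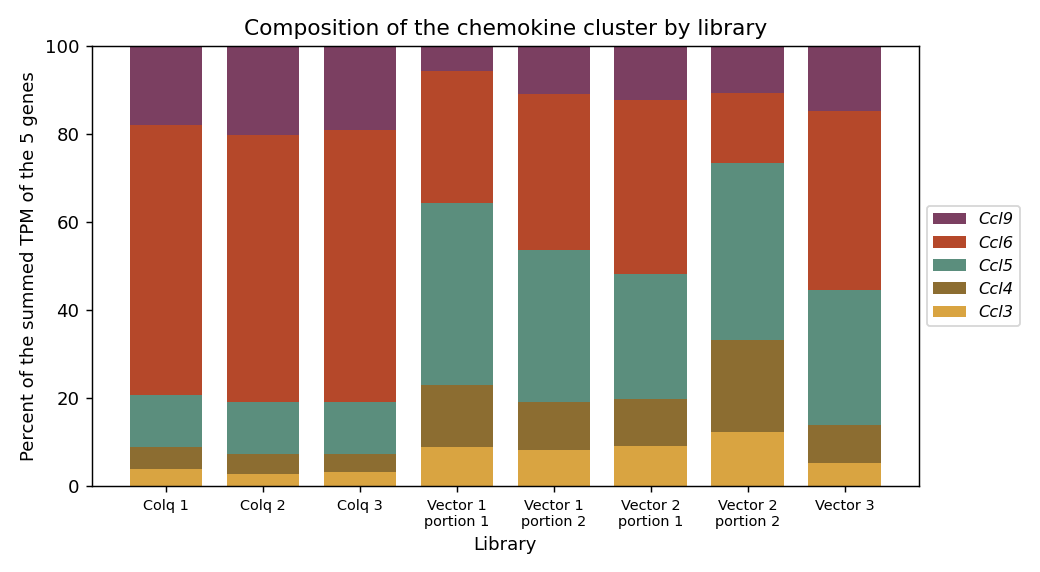
Percent of the summed TPM of the 5 genes (vertical axis) taken by each gene in the 3 Colq libraries, left, and the 5 Vector libraries, right, with portions of Vector tumors 1 and 2 drawn apart. Ccl6 and Ccl9 fill most of each Colq bar, while Ccl5 averages 34.0% over Vector tumors against 11.8% over Colq tumors.

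The order of levels differed in the same way. In Colq tumors Ccl6 was highest, followed by Ccl9, Ccl5, Ccl4 and Ccl3, and the ranges of neighbours in that order overlapped only for Ccl4 and Ccl3, where Ccl4 was higher in 3 of 3 tumors. In Vector tumors Ccl5 and Ccl6 were highest and overlapped, with Ccl5 higher in 2 of 3 tumors. Ccl4, Ccl9 and Ccl3 followed, with overlapping ranges between neighbours and the order holding in 2 of 3 tumors for each.

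Portions of 1 tumor varied from gene to gene. In Vector tumor 1 the larger portion value was 1.30 times the smaller for Ccl3, 1.51 times for Ccl4, 1.42 times for Ccl5, 1.01 times for Ccl6 and 1.61 times for Ccl9. In Vector tumor 2 the ratios were 1.15 for Ccl3, 1.29 for Ccl4, 1.08 for Ccl5, 3.82 for Ccl6 and 1.75 for Ccl9. Ccl6 thus had both the smallest and the largest ratio, and an SD over tumors leaves out this spread. Across Vector tumors the coefficient of variation was 56.1% for Ccl3, 50.6% for Ccl4, 29.4% for Ccl5, 14.8% for Ccl6 and 33.1% for Ccl9. Across Colq tumors it was 19.1%, 9.43%, 0.976%, 0.937% and 6.19%, in the same order of genes.

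On GRCm38 the members span 139 kb. They run in the order Ccl5 (chr11:83525778-83530518), Ccl9 (chr11:83572919-83578636), Ccl6 (chr11:83587882-83593087), Ccl3 (chr11:83647844-83649355) and Ccl4 (chr11:83662584-83664683), with gaps of 42.4, 9.25, 54.8 and 13.2 kb. The larger fold changes thus sat in the middle of the cluster, with smaller ones on both sides. A noncoding gene, E230016K23Rik, lies antisense over Ccl6 and held 0.15 to 1.22 TPM in Colq libraries and 0 to 0.13 TPM in Vector libraries. The libraries keep no strand, so reads of the overlap cannot be assigned to either gene.

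Within 250 kb of the cluster lie 14 other protein-coding genes; the table held 11, and 6 were tested. Wfdc17 and Wfdc21, which encode small secreted proteins with a whey acidic protein domain, were called higher, and the other 4 were called lower. Wfdc17, expressed by macrophages, measured 350, 319 and 351 TPM in the Colq tumors, against 38.9 and 33.9 TPM in the portions of Vector tumor 1, 84.1 and 27.5 TPM in those of Vector tumor 2 and 17.9 TPM in Vector tumor 3. Its libraries did not overlap between groups, and its log2 fold change was 3.38 (SE 0.31; limma, adjusted p = 6.69e-05). Wfdc21 averaged 4.90 ± 2.1 TPM in the Colq tumors, against 0.313 ± 0.28 TPM in the Vector tumors (SD, n = 3 each; log2 fold change 2.16). The lower neighbours included the adaptor subunit gene Ap2b1 (-1.32), the RNA-binding protein gene Taf15 (-1.14) and Heatr6 (-1.09).

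**Figure D3:**
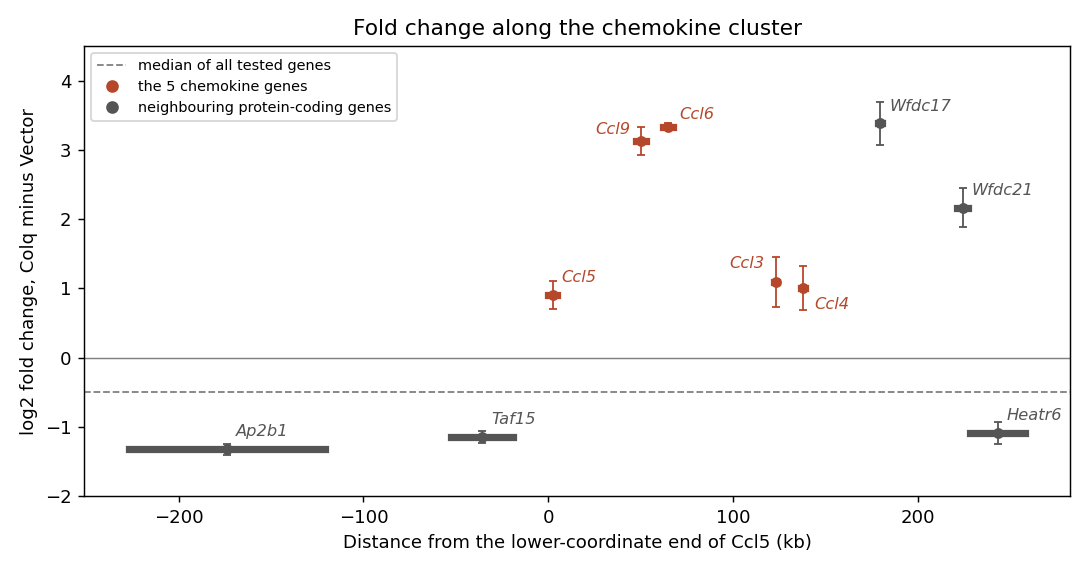
Log2 fold change, Colq minus Vector (vertical axis), against distance in kb from the lower-coordinate end of Ccl5 (horizontal axis) for the 5 chemokine genes and 5 protein-coding neighbours; thick bars span the genes, whiskers are 1 SE and the dashed line is the median of all tested genes. Ccl9, Ccl6 and Wfdc17 lie above 3, while Ap2b1, Taf15 and Heatr6 lie below -1.

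Receptor genes of these chemokines were called higher or not called. Of 7 receptor genes, all in the table, 4 were tested, and 2 were called higher and 0 lower. Ccr1, the receptor for Ccl3, Ccl5, Ccl6 and Ccl9, measured 8.73, 8.34 and 9.59 TPM in the Colq tumors, against 5.74 and 3.21 TPM in the portions of Vector tumor 1, 4.17 and 3.40 TPM in those of Vector tumor 2 and 4.14 TPM in Vector tumor 3. It was higher in every Colq library than in any Vector library, with a log2 fold change of 0.96 (SE 0.10; limma, adjusted p = 0.000141), and was also called after size factors and after removal of the length trend.

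Ackr1, an atypical receptor that binds inflammatory chemokines on venules and red cells, measured 1.40, 1.86 and 1.94 TPM in the Colq tumors and between 0 and 1.24 TPM in Vector libraries (log2 fold change 0.96, SE 0.19; limma, adjusted p = 0.00316). Ccrl2, an atypical receptor that does not signal, averaged 3.48 ± 0.55 TPM in the Colq tumors, against 4.89 ± 2.0 TPM in the Vector tumors (SD, n = 3 each; log2 fold change -0.34, limma, adjusted p = 0.255); without Vector tumor 3 it was called lower (-0.60, adjusted p = 0.0237).

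The 3 receptor genes left were below the filter. Ccr3, the eosinophil receptor for Ccl5, measured 1.00, 1.15 and 1.12 TPM in the Colq tumors and between 0 and 0.08 TPM in Vector libraries. Ccr1l1, a relative of Ccr1, did not exceed 0.11 TPM in any library. Ackr2, a scavenging receptor of CC chemokines, measured 0.10, 0.07 and 1.92 TPM in the Colq tumors and between 0.18 and 0.65 TPM in Vector libraries.

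Cytokines that act on the expression of these chemokines in macrophages and T cells were also listed. Of 10 genes listed, all in the table, 6 were tested, and 4 were called higher and 1 lower (median log2 fold change 0.80). Il33, an alarmin of stromal cells, measured 24.9, 25.6 and 21.0 TPM in the Colq tumors, against 6.24 and 4.05 TPM in the portions of Vector tumor 1, 5.72 and 2.12 TPM in those of Vector tumor 2 and 1.80 TPM in Vector tumor 3. All Colq libraries exceeded all Vector libraries, with a log2 fold change of 2.54 (SE 0.26; limma, adjusted p = 0.000113). Il1b, the inflammatory cytokine interleukin 1 beta, rose by 0.89 (limma, adjusted p = 0.00056) and Ifng, interferon gamma, by 0.75 (0.00163). Tnf, tumor necrosis factor, was not called, at 3.32 ± 0.75 TPM in the Colq tumors, against 2.95 ± 1.5 TPM in the Vector tumors (SD, n = 3 each; log2 fold change 0.20, limma, adjusted p = 0.581). Il10, a cytokine that restrains macrophages, was named after its value was seen and rose by 0.84 (limma, adjusted p = 0.0189). That call was lost under several settings. Among them were removal of the length trend, first portions only (0.60, limma, adjusted p = 0.13) and leaving out Colq tumor 1 (0.0641) or Colq tumor 3 (0.0621). Csf1, the growth factor of macrophages, was lower, at 11.9 ± 1.0 TPM in the Colq tumors, against 20.8 ± 1.2 TPM in the Vector tumors (SD, n = 3 each; log2 fold change -0.76, limma, adjusted p = 0.000252), also after size factors but not after removal of the length trend.

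Genes for proteins that cut, store or hold chemokines, or that build heparan sulfate, were split. Of 13 genes listed, 9 were tested, with 3 called higher and 5 lower (median -0.32), and 5 higher and 3 lower after size factors. Mmp12, the macrophage elastase, averaged 35.2 ± 2.2 TPM in the Colq tumors, against 14.6 ± 2.2 TPM in the Vector tumors (SD, n = 3 each; log2 fold change 1.25, limma, adjusted p = 4.37e-05). Hspg2, the basement membrane proteoglycan perlecan, averaged 10.7 ± 0.82 TPM in the Colq tumors, against 42.7 ± 1.8 TPM in the Vector tumors (SD, n = 3 each; log2 fold change -1.91, limma, adjusted p = 9.67e-06). Ndst1 and Ext1, enzymes that build heparan sulfate, fell by 1.27 and 1.14, and all of these calls held after size factors and after removal of the length trend. The remaining called genes were named after their values were seen. Dpp4, a peptidase that trims chemokines, rose by 1.10 and Srgn, the granule proteoglycan serglycin, by 1.33. The syndecan Sdc1 fell by 0.90, a call lost after size factors, and Sdc4 was lower by -0.32 as deposited but higher by 0.22 after size factors.

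Transcription factors known to act on promoters of inflammatory chemokines were called lower more often than higher as deposited, but not after size factors. The list also held Nfkbia, which encodes an inhibitor of NF-kappa B and not a transcription factor. It was not called as deposited (-0.18) and was called higher after size factors (0.35). Of 19 genes listed, 18 were tested, with 1 called higher and 8 lower (median log2 fold change -0.20), and 6 higher and 6 lower after size factors. Rela, the p65 subunit of NF-kappa B, averaged 21.1 ± 1.3 TPM in the Colq tumors, against 45.4 ± 1.1 TPM in the Vector tumors (SD, n = 3 each; log2 fold change -1.07, limma, adjusted p = 2.4e-05). Nfkb2 and Nfatc2, which serve the noncanonical NF-kappa B and T cell receptor pathways, fell by 0.94 and 0.94. The calls of these 3 genes held after size factors, and that of Nfatc2 was lost after removal of the length trend, where its value was 0.02. Spi1, which encodes the myeloid factor PU.1 and was named after its value was seen, rose by 0.90 (SE 0.25; limma, adjusted p = 0.0139).

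Calls among genes of signalling below the receptors depended on the scale. Of 18 tested, 3 were called higher and 6 lower (median -0.29). After size factors 4 were called higher and 0 lower, for a median of 0.16. With the length and GC trend removed, 8 were called higher and 1 lower, for a median of 0.53. The G protein subunits Gnb1, Gnai3 and Gnai2 and the receptor kinase Grk2 fell by 0.60, 0.48, 0.65 and 0.55, and none of the 4 was called after size factors, where Gnai3 stood at 0.07. The 3 called higher were named after their values were seen. The G protein subunit Gng2 rose by 0.81, the regulator Rgs1 by 0.97 and the leukocyte GTPase Rac2 by 0.72, all called also after size factors and after removal of the length trend. The call of Rac2 was lost without Vector tumor 1 (limma, adjusted p = 0.131), without Vector tumor 3 (0.101) and without Colq tumor 1, 2 or 3 (0.0989, 0.0871 and 0.104). That of Rgs1 was lost without Colq tumor 2 (limma, adjusted p = 0.071), Colq tumor 3 (0.0565) or Vector tumor 1 (0.0759).

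**Figure D4:**
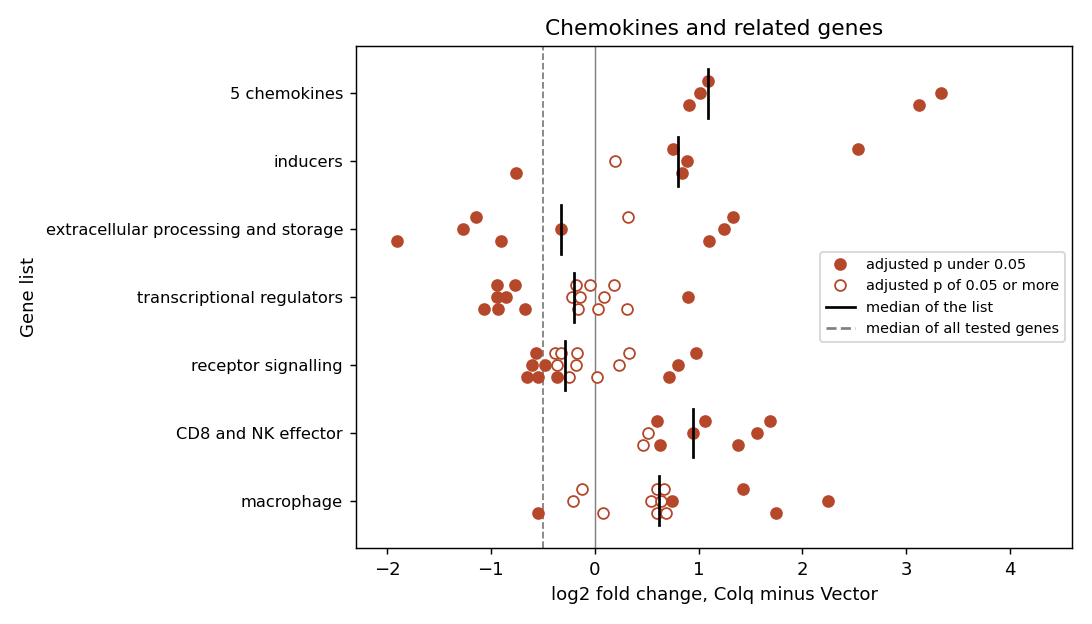
Log2 fold change, Colq minus Vector (horizontal axis), of tested genes in 7 lists (vertical axis), filled where the limma adjusted p is under 0.05, with the median of each list as a bar and the median of all tested genes (-0.50) as a dashed line. The chemokines and the inducers have medians of 1.09 and 0.80, while the regulators and the signalling genes have medians of -0.20 and -0.29.

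Markers of the cells that make these chemokines differed from gene to gene, and only some were higher. Of 14 macrophage markers, all tested and none at 0 in any library, 4 were called higher and 1 lower as deposited, and 11 higher and 0 lower after size factors. Their summed level was 1682 to 1729 TPM over Colq tumors and 502 to 1080 TPM over Vector tumors, and without Lyz2 it was 812 to 856 TPM over Colq tumors and 335 to 855 TPM over Vector tumors. Lyz2, the lysozyme of myeloid cells, measured 865, 873 and 870 TPM in the Colq tumors and between 154 and 296 TPM in Vector libraries (log2 fold change 2.25), and the scavenger receptor gene Marco had a log2 fold change of 1.75. Others did not rise and were named after their values were seen: Mertk, a receptor for uptake of dying cells, was called lower (-0.54; limma, adjusted p = 0.00612), though not after size factors, and Mpeg1 (-0.21) and the Csf1 receptor gene Csf1r (-0.12) were not called, with positive values after size factors. Without Vector tumor 3 both of these were called lower (log2 fold changes -0.54 and -0.45; limma, adjusted p = 0.0251 and 0.00863). Of 12 markers of CD8 T cells and NK cells, 9 were tested and 7 were called higher and 0 lower, with summed levels of 67.4 to 73.7 TPM in the Colq tumors, against 20.5 to 42.7 TPM in the Vector tumors. After size factors 9 were called higher, and 6 after removal of the length trend. Cd8a, Gzmb and Prf1, named after their values were seen, lay near the threshold (limma, adjusted p = 0.0489, 0.0457 and 0.0416). For Gzmb the tumors of the groups overlapped. Nkg7, a granule protein of cytotoxic cells, had a log2 fold change of 1.38 and the NK receptor gene Klrk1 one of 1.56, and Gzmk was at 0 in some library. Of 10 T cell markers, all tested and none at 0, 4 were called higher and 1 lower (5 and 0 after size factors), with sums of 53.3 to 62.3 TPM in the Colq tumors, against 30.1 to 48.5 TPM in the Vector tumors, and Trbc1 and Cd3d had log2 fold changes of 1.38 and 1.53. Without Trbc2, the most abundant of them, the sums were 39.85 to 46.5 TPM in the Colq tumors, against 24.3 to 39.9 TPM in the Vector tumors. Lck, the kinase of T cell receptor signalling, was named after its value was seen and was lower by -0.44 as deposited (limma, adjusted p = 0.027) but 0.06 and not called after size factors; its call was also lost without Colq tumor 1 (0.0672), Vector tumor 1 (0.0621) or Vector tumor 3 (0.0677). Cd5 (-0.36) and Cd3e (-0.12) were not called. The part of these cells in the chemokine values was not tested.

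Further lists covered other leukocytes. Of 8 monocyte markers 4 were called higher and 3 lower, with sums of 296 to 313 TPM in the Colq tumors, against 131 to 164 TPM in the Vector tumors. Plac8 had the largest log2 fold change of the list (2.91), at 201 ± 2.1 TPM in the Colq tumors, against 26.2 ± 3.0 TPM in the Vector tumors (SD, n = 3 each). Ly6c2 (0.64), Ccr2 (1.03) and F13a1 (1.77), named after their values were seen, were also called higher. Without Plac8 the other 7 markers summed to 97.5 to 111 TPM in the Colq tumors, against 107 to 138 TPM in the Vector tumors. Of that sum, Nr4a1 alone averaged 35.1 TPM in the Colq tumors, against 86.8 TPM in the Vector tumors. The markers called lower, named after their values were seen, were Chil3 (-0.66), Cx3cr1 (-1.52) and Nr4a1 (-1.28), of which Chil3 was not called after size factors. Of 9 dendritic cell markers 7 were tested and 5 were higher and 0 lower, with sums of 50.4 to 59.97 TPM in the Colq tumors, against 16.3 to 24.5 TPM in the Vector tumors. Of 10 mast cell and eosinophil markers 6 were tested and 5 were higher and 1 lower, at 45.5 to 50.8 TPM in the Colq tumors, against 24.8 to 34.9 TPM in the Vector tumors. The lower gene, named after its value was seen, was Kit (log2 fold change -1.56), the most abundant of the list. Without Kit the sums were 39.3 to 45.6 TPM in the Colq tumors, against 6.46 to 13.1 TPM in the Vector tumors. Epx was at 0 in every library, and Prg2 was at 0 in every Vector library. Of 8 B and plasma cell markers 4 were tested and 3 were higher and 0 lower, at 93.5 to 95.4 TPM in the Colq tumors, against 5.01 to 20.2 TPM in the Vector tumors.

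Neutrophil markers were uneven. Of 10 listed, 9 were in the table and 4 were tested, with 1 called higher and 0 lower, and sums of 20.1 to 22.6 TPM in the Colq tumors, against 2.12 to 63.6 TPM in the Vector tumors. S100a9 measured between 4.69 and 8.90 TPM in Colq libraries but 58.0 TPM in 1 portion of Vector tumor 1 and at most 3.09 TPM in the other Vector libraries (log2 fold change 1.22; limma, adjusted p = 0.251); without Vector tumor 1 it was called higher (2.32, adjusted p = 0.0054). Retnlg had a log2 fold change of 2.01, and Ngp was at 0 in every library. Of 6 platelet markers 2 were tested, with 1 higher and 0 lower: Pf4 averaged 71.1 ± 5.8 TPM in the Colq tumors, against 17.2 ± 2.4 TPM in the Vector tumors (SD, n = 3 each; log2 fold change 2.09), and Itga2b had a log2 fold change of -0.26 (limma, adjusted p = 0.323). Gp9 and Gp5, which define platelets, were at 0 in all Colq libraries, and the list summed to 68.4 to 78.4 TPM in the Colq tumors, against 15.8 to 21.5 TPM in the Vector tumors. Without Pf4 it summed to 0.63 to 1.25 TPM in the Colq tumors, against 1.20 to 2.12 TPM in the Vector tumors.

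Markers of surrounding tissue and of the tumor cells were also measured. All 10 skeletal muscle markers were called higher, at 994 to 1011 TPM in the Colq tumors, against 50.2 to 111 TPM in the Vector tumors. Of 8 fibroblast markers 5 were higher and 2 lower, at 393 to 425 TPM in the Colq tumors, against 225 to 293 TPM in the Vector tumors. Of 7 tested keratinocyte markers 4 were higher and 0 lower, and of 2 tested adipocyte markers 1 was higher and 0 lower, with sums of 39.4 to 45.1 TPM and 58.7 to 67.5 TPM in Colq tumors, against 1.54 to 113 TPM and 34.0 to 66.0 TPM in Vector tumors. The melanoma markers, which identify the labelled cell line and were all detected, were called lower for 7 of 8 as deposited, but lower for 5 and higher for 2 after size factors, at 11300 to 11620 TPM in the Colq tumors, against 18930 to 23100 TPM in the Vector tumors. Their part in the chemokine result was not tested.

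Genes whose profiles over the 6 tumors were nearest to each member were found by root mean square distance between centred log2(TPM + 1) values, a description over 6 points that share their groups. Nearest to Ccl6 were the lectin receptor gene Cd209f (0.158), the muscle light chain gene Mylpf (0.169) and Cd209g (0.186). Nearest to Ccl9 were the muscle myosin gene Myh4 (0.119), the calcium-binding protein gene S100a4 (0.202) and the chemokine gene Ccl8 (0.222). Both lists mix myeloid and muscle genes. Nearest to Ccl4 were Ms4a4c (0.0567), the leukocyte surface gene Cd48 (0.0737) and Ctla2b (0.104). For Ccl3 they were Ctla2b (0.146), Cd300c2 (0.159) and Ms4a4c (0.161), and for Ccl5 the sorting nexin gene Snx20 (0.0691), B3galnt1 (0.0698) and the ectoenzyme gene Bst1 (0.0707). Ccl3 and Ccl4 shared neighbours, and no muscle gene stood among those of Ccl3, Ccl4 or Ccl5. The distance takes in the difference between groups, so genes of unlike fold change lie far apart by construction. The skeletal muscle markers had log2 fold changes of 3.0 to 4.4, so none of them could stand near Ccl3, Ccl4 or Ccl5. Between members the distance was 0.169 for Ccl3 and Ccl4, 0.19 for Ccl4 and Ccl5, 0.265 for Ccl3 and Ccl5 and 0.271 for Ccl6 and Ccl9, while pairs across the sets lay 1.13 to 1.24 apart. The distances across the sets largely restate the fold changes.

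**Figure D5:**
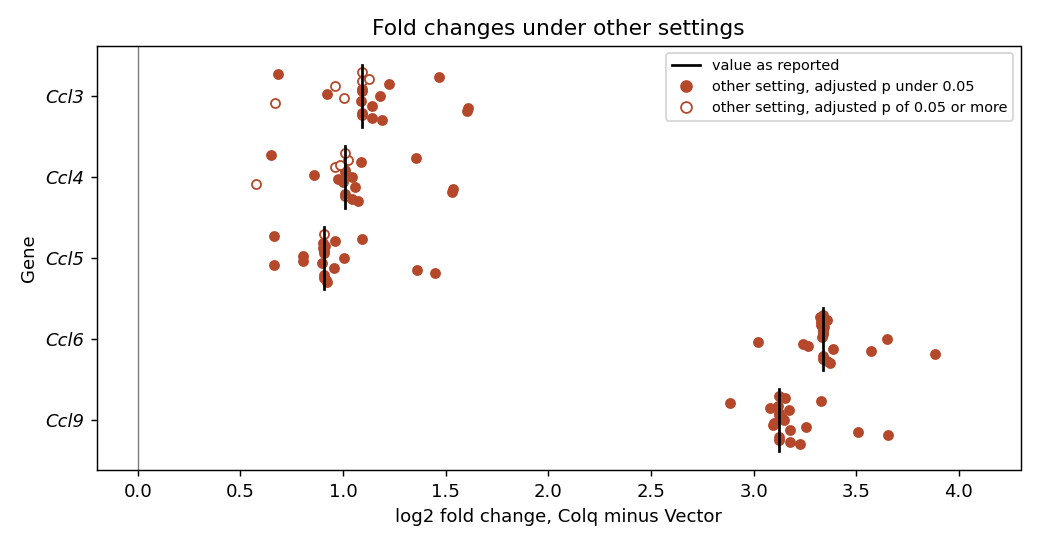
Log2 fold change, Colq minus Vector (horizontal axis), of each chemokine gene (vertical axis) under 21 other settings, with the reported value as a bar and open points where the limma adjusted p is 0.05 or more. All values are above 0, and Ccl6 and Ccl9 were called under all 21 settings, Ccl5 under 20, Ccl4 under 15 and Ccl3 under 14.

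Across these 21 settings the log2 fold change ranged from 3.02 to 3.88 for Ccl6, from 2.88 to 3.66 for Ccl9, from 0.66 to 1.45 for Ccl5, from 0.58 to 1.53 for Ccl4 and from 0.67 to 1.61 for Ccl3. The ranges of Ccl6 and Ccl9 did not meet those of the other members under any setting run.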

How the data were processed

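Poly-A RNA of whole tumors was extracted with TRIzol and made into libraries without strand information, per the labels' protocols. The authors deposited expression as log2(TPM + 1), which returns to TPM with 2 decimals for 99.89% of values (tolerance 1e-05). TPM values were made by the authors; the submitters' processing notes name RSEM and the mm39 build; the read aligner and the versions are not given in the sources used. The authors' deposited table of log2 fold changes and adjusted p-values comes from DESeq2, per the submitters' processing notes, and which libraries entered it is not given there. Depth cannot be read from TPM, and the spread over tumors sets the precision.

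Groups and tumor numbers came from the sample titles. Portions of a Vector tumor were averaged, on the log2 scale for tests and as TPM for means and shares, which leaves 3 tumors against 3. The 13726 genes (of 28918) that averaged 1 TPM or more over tumors were fitted on log2(TPM + 1), a pseudocount that understates the change of low genes, by limma (version 3.58.1; lmFit, then eBayes with a trend) under R 4.3.3, and p-values were adjusted by Benjamini-Hochberg over all of them. Single values were set against an exact permutation test over tumors (two-sided). Tables, sequences and figures were made with Python 3.11.15, numpy 2.4.6, pandas 2.3.3, scipy 1.17.1 and matplotlib 3.10.9. Positions and coding sequences came from GENCODE M21 on GRCm38 and upstream windows from RefSeq on GRCm38.p6. Exonic length and GC content covered 96.2% of tested genes, and their trend was removed by loess (span 0.5) as 1 alternative.

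The members and gene lists were chosen with earlier results of these data known. Named genes are the members, all receptors, up to 4 genes of smallest p in each other pathway list, up to 2 in 5 marker lists, tested neighbours within 250 kb and the 3 nearest profiles of each member, of which some are not reported here. The fit was tested on simulated data. Alternatives were quantile normalization, size factors, pseudocounts of 0.1 and 0.5, a filter at a mean of 5 TPM or none, rescaled TPM, removal of the length and GC trend, robust eBayes, other uses of the portions, a block on replicate number, leaving out each tumor and the Colq libraries as 1 sample.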

Additional observations from a re-analysis of the deposited data

How the results depend on the processing

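Ccl6 and Ccl9 kept their direction and call under all 21 alternatives. Ccl3 and Ccl4 kept their direction but lost their calls (limma) with no filter (log2 fold changes 1.09 and 1.01, adjusted p = 0.08 and 0.0676) and without the length and GC trend (0.67 and 0.58), which left 3 members called higher in each case; Ccl3 was also lost on first portions only (1.00, adjusted p = 0.059). With the Colq libraries averaged to 1 sample, an alternative added after the data were seen in which that sample is taken to vary as Vector tumors do, the values 1.09, 1.01 and 0.91 of Ccl3, Ccl4 and Ccl5 were no longer called, which left 2 members called higher; fewer samples enter that fit. Leaving out 1 tumor gave 0.69 to 1.47 for Ccl3, 0.65 to 1.36 for Ccl4 and 3 to 5 members called higher. Counts over all genes depended on the scale: 3742 higher and 3675 lower with size factors, 3189 and 4160 with quantile normalization, 2567 and 3664 with the trend removed, and 788 higher with the Colq libraries as 1 sample, against 1556 and 8181.

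Same-numbered tumors did not deviate together over genes (correlations 0.030, 0.007 and 0.044), and tumors were not treated as paired. Such correlations cannot show whether same-numbered tumors shared a batch. A replicate block left 5 members called higher, with 1526 genes higher and 7928 lower over all. Reversals were Gnai3 (0.071), Sdc4 (0.22) and Lck (0.055) with size factors, Sdc4 (0.17) and Lck (0.068) with quantile normalization, and Grk2 (0.071) and Nfatc2 (0.017) with the trend removed. Leaving out 1 tumor moved the difference Ccl3 minus Ccl4 between -0.0003 and 0.24 and that of Ccl4 minus Ccl5 between -0.015 and 0.262, and differences near 0 changed sign: Ccl3 minus Ccl4 without Colq tumor 1 (-0.0003), Ccl4 minus Ccl5 without Vector tumor 3 (-0.015) and Ccl6 minus Ccl9 on first portions (-0.076). For 66 other named genes, 1263 of 1367 values kept direction and call, 92 lost the call, 5 gained it and 7 reversed. Depth is unknown, which limits what can be said of genes near 0 TPM such as Ccr3. The causes of these changes were not tested.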
